A study of Mus musculus with 8 samples.

Results

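The genes described here carry out antigen presentation by major histocompatibility complex (MHC) class I molecules. They are H2-K1 and H2-D1, which encode the classical heavy chains, B2m, which encodes the shared light chain, Tap1, Tap2 and Tapbp, which deliver and load peptides, Psmb8, Psmb9 and Psmb10, which encode the catalytic subunits of the immunoproteasome, and Nlrc5, which encodes the transactivator of this gene set. The 10 genes were chosen by function, with earlier results of these data known. Of them 9 were among the 17378 genes of 52636 that passed the filter on low counts. The gene outside the filter was Nlrc5.

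RNAseq was performed on S0 cells, the lineage-negative fraction of E12.5 fetal liver that carries neither CD71 nor Ter119 and that the labels call erythroid precursors. 4 libraries came from wild-type (WT) embryos and 4 from double knockout (DKO) embryos lacking Vps13a and Vps13c, genes of a family of lipid transport proteins, all on the C57BL/6J strain. The Vps13a allele had lost exon 6 in the whole body through FLP and then β-actin-Cre recombination. DKO embryos came from intercrosses of Vps13a+/-/Vps13c-/- mice, so their littermates also lacked Vps13c, and WT embryos did not come from those litters as far as the study's methods tell. Each library was treated as 1 embryo, which the sources do not state, and p-values therefore measure only the spread between these libraries.

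Class I molecules show peptides made inside the cell to cytotoxic T cells. The proteasome cuts proteins into peptides, the TAP transporter moves them into the endoplasmic reticulum, and tapasin with other chaperones loads them onto a heavy chain bound to β2-microglobulin. Interferons are known to raise the transcription of these genes, and in the immunoproteasome 3 alternative catalytic subunits take the place of the constitutive ones. Cells of the early embryo generally carry little class I.

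Library totals ranged from 42114489 to 50886469 counts in WT and from 36981439 to 42587815 in DKO. Vps13a was at 1943 ± 130 normalized counts in WT libraries and 794 ± 194 in DKO libraries (counts scaled to a common library size, SD, n = 4), lower in DKO with an adjusted p of 0.00247 in edgeR's quasi-likelihood test. The whole-gene count of Vps13c was 583 ± 74.9 in WT and 816 ± 279 in DKO with an adjusted p of 0.182, and it does not check the label because a knockout allele can still be transcribed. Erythroid markers summed to between 49709 and 91398 normalized counts in WT and between 38193 and 112870 in DKO. Hepatoblast markers, led by Afp, summed to between 461040 and 638880 in WT and between 153420 and 555370 in DKO, so the sorted cells carried liver transcripts in both groups. Of these 8 markers 0 were called. Alb, Ttr, Apoa1 and Serpina1a, 4 of the 8, had every DKO library below every WT library, beside 14.6% of all tested genes. Mesenchymal markers were higher in DKO, with 6 of 7 called and sums of 2029 to 5745 in WT against 12186 to 44088 in DKO, highest in DKO 1. The Y-linked gene Ddx3y was expressed in all 4 WT libraries and in DKO 3, whereas DKO 1, DKO 2 and DKO 4 expressed Xist. Sex was therefore unevenly spread over the groups, and the tests of single genes and lists were repeated with the 4 WT libraries against DKO 3 alone. That fit leaves 1 DKO library. The number of genes called in it changed on several lists, and those counts are not given.

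The heavy chains and the light chain of class I were all higher in DKO cells, by between 1.45 and 1.93-fold, and both TAP subunits changed but in opposite directions. The immunoproteasome subunits did not move together. Psmb10 was 1.33-fold higher, and Psmb8 and Psmb9 did not pass the test. In all, 5 members were called higher in DKO at an adjusted p under 0.05, where 10.7% of all tested genes were called higher, and 1 was called lower, where 10.8% of all tested genes were called lower (21.6% in either direction). Without any 1 WT library the count of higher members was 3, namely H2-K1, H2-D1 and B2m, and the count of lower members stayed at 1. The median log2 fold change of the 9 tested members was 0.41, beside 0.03 over all tested genes.

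**Figure D1:**
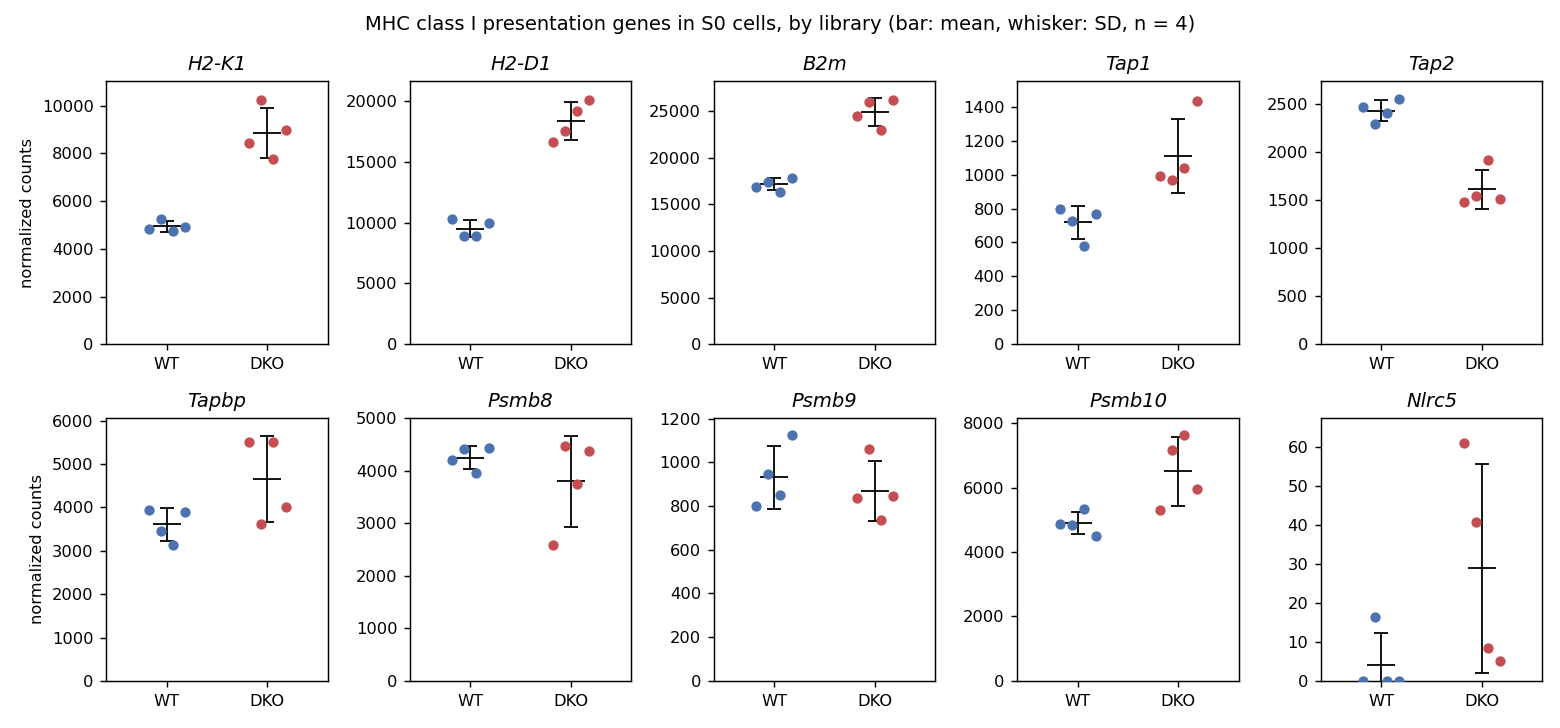
Normalized counts of the 10 members (vertical axes, each starting at 0) in the 4 WT libraries (blue) and the 4 DKO libraries (red), with the mean (bar) and SD (whisker). H2-K1, H2-D1, B2m and Tap1 had every DKO library above every WT library, Tap2 had every DKO library below, and the other 5 genes overlapped between the groups.

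H2-K1 and H2-D1 encode the heavy chains that hold the peptide. H2-K1 lies at chr17:33996017-34000347 on the minus strand of GRCm38, and H2-D1 lies in the same complex at chr17:35262730-35267499 on the plus strand. H2-K1 was measured at 4814, 5250, 4763 and 4933 normalized counts in WT 1 to WT 4 and at 8450, 10233, 7767 and 8965 in DKO 1 to DKO 4. The highest WT library thus lay below the lowest DKO library. The log2 fold change was 0.84 with an SE of 0.094, a 1.79-fold rise (adjusted p = 0.00135 in edgeR), and the exact two-sided permutation test gave p = 0.0286, the smallest that 4 against 4 libraries allow. H2-D1 was measured at 10275, 8908, 8930 and 9951 normalized counts in WT and at 16662, 17496, 19190 and 20053 in DKO. Again no libraries overlapped, and the rise was the largest among the 9 tested members, with a log2 fold change of 0.95 (SE 0.088, adjusted p = 0.000516 in edgeR), or 1.93-fold.

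B2m, at chr2:122147686-122153083 on the plus strand, encodes β2-microglobulin, without which the heavy chains do not reach the cell surface. It was measured at 16917, 17445, 16360 and 17856 normalized counts in WT and at 24441, 25958, 23014 and 26222 in DKO. The groups did not overlap, and B2m had the smallest spread of the 3 genes relative to its mean in DKO. It rose 1.45-fold, a log2 fold change of 0.54 with an SE of 0.072 (adjusted p = 0.00265 in edgeR). The summed level of H2-K1 and H2-D1 per kilobase of exon was 0.27 ± 0.0116 of the B2m level in WT and 0.35 ± 0.0209 in DKO, a ratio chosen after the values were seen and given without a test.

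With the 4 WT libraries set against DKO 3 alone, the log2 fold changes of these 3 genes were 0.63 for H2-K1 (adjusted p = 0.00426), 0.99 for H2-D1 (adjusted p = 0.000611) and 0.41 for B2m (adjusted p = 0.016), all in edgeR with the single DKO library assumed to vary like WT. With any 1 of the 8 libraries omitted, they ranged from 0.76 to 0.90, from 0.91 to 0.99 and from 0.51 to 0.58. Mesenchymal marker sums did not overlap between the groups either, at 2029 to 5745 in WT and 12186 to 44088 in DKO. Markers of other cells moved with the groups as well. Early progenitor markers, such as Kit, Cd34 and Flt3, were called lower in 5 of 8 cases and summed to 35570 to 44749 normalized counts in WT and 17095 to 23602 in DKO. Endothelial markers summed to 3998 to 5154 in WT and 2218 to 3189 in DKO, with 2 of 8 called lower, and lymphoid markers to 1618 to 1918 and 290 to 984, with 1 of 5 tested called lower. Of all tested genes 10.8% were called lower. The part of mesenchymal, early progenitor, endothelial, lymphoid, hepatoblast and other cells in the class I rises was not tested. In sorted bulk cells more cells of a type and more RNA per cell cannot be told apart.

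The start regions of these 3 genes are shown because they carry a sequence pair that the other members with a RefSeq promoter did not. In class I promoters the X2 box, a cAMP-response-element-like motif, and the Y box, an inverted CCAAT motif, are bound by the assembly of RFX, CREB/ATF and NF-Y factors on which NLRC5 acts. The pair was searched on both strands as TGACG, any 20 bases and ATTGG in the 250 bases before the RefSeq start (GRCm38.p6), and those letters and that spacing were chosen after these promoters were read. The capitals mark the X2 letters and the Y letters, and H2-M3, a nonclassical class I gene, is the only other gene of the class I lists with the pair.
H2-K1, chr17:34000359-34000388, minus strand: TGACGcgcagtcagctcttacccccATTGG
H2-D1, chr17:35262993-35263022, plus strand: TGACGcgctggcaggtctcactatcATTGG
B2m, chr2:122147609-122147638, plus strand: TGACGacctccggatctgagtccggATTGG
H2-M3, chr17:37270188-37270217, plus strand: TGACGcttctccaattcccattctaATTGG
H2-K1 and H2-D1 were identical at 23 of these 30 bases, and H2-K1 and B2m at 13, of which 10 are the searched letters.

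Upstream of that pair, H2-K1 and H2-D1 shared a stretch holding an NF-kB site (GGGGA followed by TTCCC) and a motif like the interferon-stimulated response element (ISRE; GTTTC, any 2 bases and TTC). Both are shown with these letters in capitals.
H2-K1, chr17:34000429-34000458, minus strand: GGGGATTCCCcatctccacaGTTTCacTTC
H2-D1, chr17:35262923-35262952, plus strand: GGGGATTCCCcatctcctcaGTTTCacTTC
The 2 stretches were identical at 29 of 30 bases. B2m had neither of these runs of letters, and other spellings of the NF-kB site were not searched. It held an ISRE core (GAAA, any 2 bases and GAAA) between 139 and 130 bases before its start. The whole windows of H2-K1 and B2m place these elements, in capitals, relative to the start, which follows the last base of H2-K1 and lies 1 base beyond the last base of B2m.
H2-K1, chr17:34000348-34000597, minus strand: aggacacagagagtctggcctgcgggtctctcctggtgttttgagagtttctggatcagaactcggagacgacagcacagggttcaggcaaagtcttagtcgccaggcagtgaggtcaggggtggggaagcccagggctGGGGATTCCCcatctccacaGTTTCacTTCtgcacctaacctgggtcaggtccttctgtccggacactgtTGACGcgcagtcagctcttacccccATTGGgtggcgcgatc
B2m, chr2:122147437-122147685, plus strand: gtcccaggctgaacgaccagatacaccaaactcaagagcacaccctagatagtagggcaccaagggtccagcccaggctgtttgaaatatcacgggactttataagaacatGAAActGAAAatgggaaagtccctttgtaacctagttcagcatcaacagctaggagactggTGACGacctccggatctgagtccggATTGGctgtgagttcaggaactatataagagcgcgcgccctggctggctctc

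**Figure D2:**
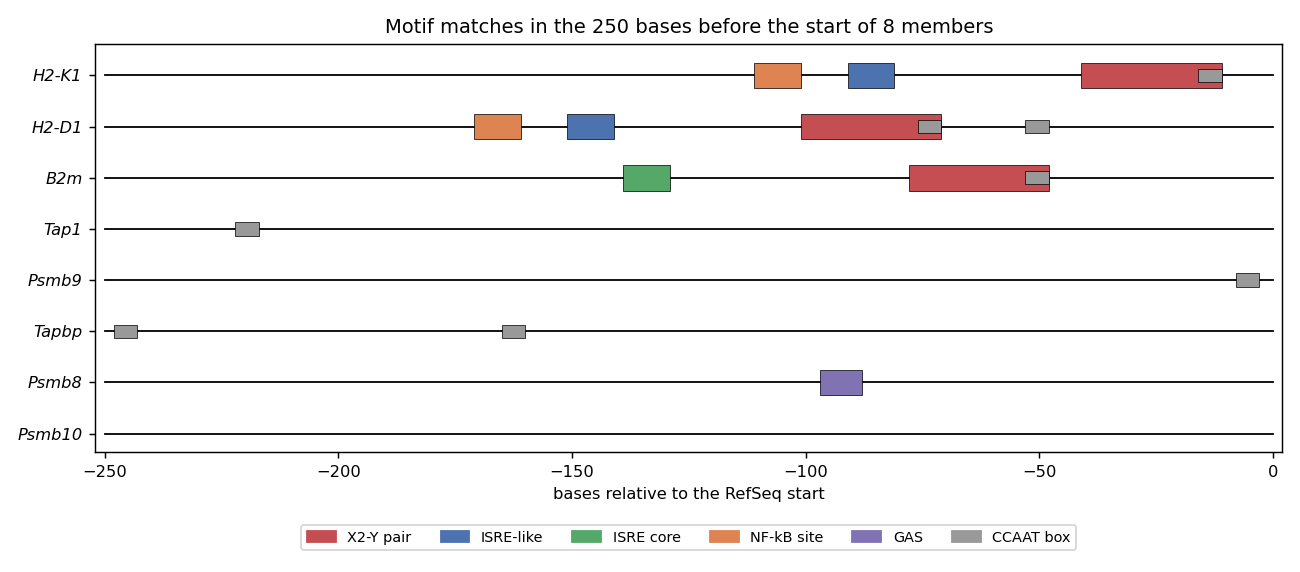
Motif matches on either strand in the 250 bases before the RefSeq start (horizontal axis, bases relative to the start) of the 8 members with a promoter entry. The X2-Y pair was matched in H2-K1, H2-D1 and B2m, the NF-kB and ISRE-like motifs in H2-K1 and H2-D1, and a gamma-activated site in Psmb8.

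Of 27025 genes with a RefSeq promoter, 26 held the X2-Y pair (0.096%), and 20 of these were tested. Beyond H2-K1, H2-D1 and B2m, Glyr1, Hnrnpf and Calu were called lower in DKO, with log2 fold changes of -0.68, -0.44 and -0.39, and the remaining 14 were not called. H2-M3 was among those 14, at 150 ± 31.7 normalized counts in WT and 246 ± 35.7 in DKO (log2 fold change 0.72, adjusted p = 0.0681 in edgeR). The ISRE-like motif was found in 1.449% of 32851 promoters, the ISRE core in 2.977% and the NF-kB site in 0.085%. The nonclassical genes H2-Q6 and H2-Q7 held both the NF-kB site and the ISRE-like motif. They were not called, with log2 fold changes of -0.18 and 0.42. H2-Q4, H2-Q10, H2-M2 and H2-M3 held the ISRE-like motif without that NF-kB site. Of these, H2-Q4 was called higher (1.89) and H2-Q10 lower (-1.17). Psmb8 held a gamma-activated site (TTCNNNGAA), found in 7.02% of promoters, between 97 and 89 bases before its start. The Y letters alone (ATTGG) occurred in 6 of the 8 members with an entry and in 33.85% of promoters. Tap2 and Nlrc5 were not in the promoter table. A match is a run of letters and does not show that a factor is bound.

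Tap1 and Tap2 encode the 2 subunits of the peptide transporter, and Tapbp encodes tapasin, which bridges the transporter and the heavy chain. Tap1 (chr17:34187553-34197225, plus strand) was measured at 800, 728, 578 and 768 normalized counts in WT and at 993, 968, 1039 and 1436 in DKO. Every DKO library lay above every WT library, with DKO 4 well above the other 3. The log2 fold change was 0.63 with an SE of 0.167 (adjusted p = 0.0275 in edgeR). The call was lost, in the same direction, without any 1 of the WT libraries (adjusted p between 0.0561 and 0.0659), without DKO 4 (0.0525) and with DKO 3 as the only DKO library (0.115). Tap1 and Psmb9 overlap by 212 bases on opposite strands, and reads in that stretch could count for either gene, since no source used here says whether counting was strand-specific.

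Tap2 (chr17:34203527-34216321, plus strand) was measured at 2467, 2293, 2413 and 2554 normalized counts in WT and at 1486, 1548, 1918 and 1510 in DKO. All 4 DKO libraries lay below the WT range, with DKO 3 closest to it. Tap2 fell by 0.59 on the log2 scale (SE 0.104, adjusted p = 0.0061 in edgeR), a 1.51-fold higher level in WT. With DKO 3 as the only DKO library the log2 fold change was -0.36 with an adjusted p of 0.065 in edgeR. Tap1 per kilobase of exon was 0.224, 0.219, 0.165 and 0.208 of the Tap2 level in WT 1 to WT 4 and 0.461, 0.432, 0.374 and 0.657 in DKO 1 to DKO 4. Tap1 RNA thus remained below Tap2 RNA in all 8 libraries, with the gap narrower in DKO, a ratio chosen after the values were seen and given without a test.

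Tapbp (chr17:33915899-33929292, plus strand) was measured at 3936, 3464, 3132 and 3902 normalized counts in WT and at 5518, 3617, 5496 and 4017 in DKO. DKO 1 and DKO 3 lay above WT, and DKO 2 lay within the WT range. The log2 fold change of 0.37 did not pass the test (SE 0.151, adjusted p = 0.11 in edgeR, and exact permutation p = 0.114). It passed without DKO 2, at 0.47 with an adjusted p of 0.0467, and with DKO 3 as the only DKO library, at 0.59 with an adjusted p of 0.0181. Tapbp shares 3422 bases of gene span with Zbtb22 on the same strand, a gene with at most 861 counts in a library.

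Psmb8, Psmb9 and Psmb10 encode the catalytic subunits that distinguish the immunoproteasome, and in place of Psmb5, Psmb6 and Psmb7 they favour peptide ends that class I can hold. Psmb8 (chr17:34197721-34201454, plus strand) was measured at 4211, 4416, 3949 and 4425 normalized counts in WT and at 2591, 4480, 3748 and 4378 in DKO. DKO 1 stood apart below the others, and the remaining DKO libraries lay within or close to the WT range. The log2 fold change was -0.16 (SE 0.156, adjusted p = 0.497 in edgeR). Psmb9 (chr17:34181987-34187764, minus strand) was measured at 799, 948, 852 and 1127 normalized counts in WT and at 837, 1061, 736 and 846 in DKO. The groups overlapped over most of their range, and the log2 fold change was -0.10 (SE 0.158, adjusted p = 0.70 in edgeR). Its sign turned under upper-quartile scaling, to 0.012.

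Psmb10 lies away from the other proteasome members, at chr8:105935735-105938444 on the minus strand. It was measured at 4881, 4849, 5338 and 4495 normalized counts in WT and at 5297, 7157, 7623 and 5966 in DKO. DKO 1 fell below WT 3 and the other 3 DKO libraries lay above all WT libraries. The log2 fold change was 0.41 with an SE of 0.12 (adjusted p = 0.0368 in edgeR), while the exact permutation test gave p = 0.0571. The call was lost without any 1 of the WT libraries (adjusted p between 0.0509 and 0.112), without DKO 2 (0.0853) and without DKO 3 (0.0747). With DKO 3 as the only DKO library the log2 fold change was 0.62 with an adjusted p of 0.00851.

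Nlrc5 (chr8:94434356-94527272, plus strand) was close to the detection limit. It had no counts in WT 1, WT 3 and WT 4 and 16.4 normalized counts in WT 2, against 60.9, 40.7, 8.55 and 5.22 in DKO 1 to DKO 4. All 4 DKO libraries held reads, but DKO 3 and DKO 4 lay below WT 2, so the groups overlapped. The filter removed the gene from the main fit, and no fold is given. With no filter its adjusted p was 0.281 in edgeR, and in DESeq2 it was 0.22, so neither fit called it.

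Levels of different genes were compared per kilobase of merged exons, so their order depends on the exon lengths used. In WT the order was B2m (19940), H2-D1 (3690), Psmb10 (2868), H2-K1 (1681), Psmb8 (1257), Tapbp (994.6), Tap2 (643), Psmb9 (254), Tap1 (131) and Nlrc5 (0.481), in normalized counts per kilobase, and no neighbours in that order overlapped between their libraries. B2m RNA thus exceeded each heavy chain RNA already in WT cells, and Tap1 was the lowest of the tested members. In DKO the order was the same except that Tapbp (1285) stood above Psmb8 (1124), and their libraries overlapped, as did those of Psmb10 (3819) and H2-K1 (3014) and those of Psmb9 (238) and Tap1 (202.5).

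7 members lie on chromosome 17 within 1.35 Mb, and Psmb9, Tap1, Psmb8 and Tap2 lie next to each other within 34.3 kb. Within that stretch 1 gene was called higher (Tap1), 1 lower (Tap2) and 2 were not called, so neighbouring genes did not move alike. Over the 9 tested members, 4 had every DKO library above every WT library, beside 13.5% of all tested genes, and 1 had every DKO library below, beside 14.6%. By the study's limit of 1 on the log2 scale in addition to the adjusted p, which 6.19% of all tested genes passed upward and 2.43% downward, the count of members was 0 in either direction in edgeR.

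**Figure D3:**
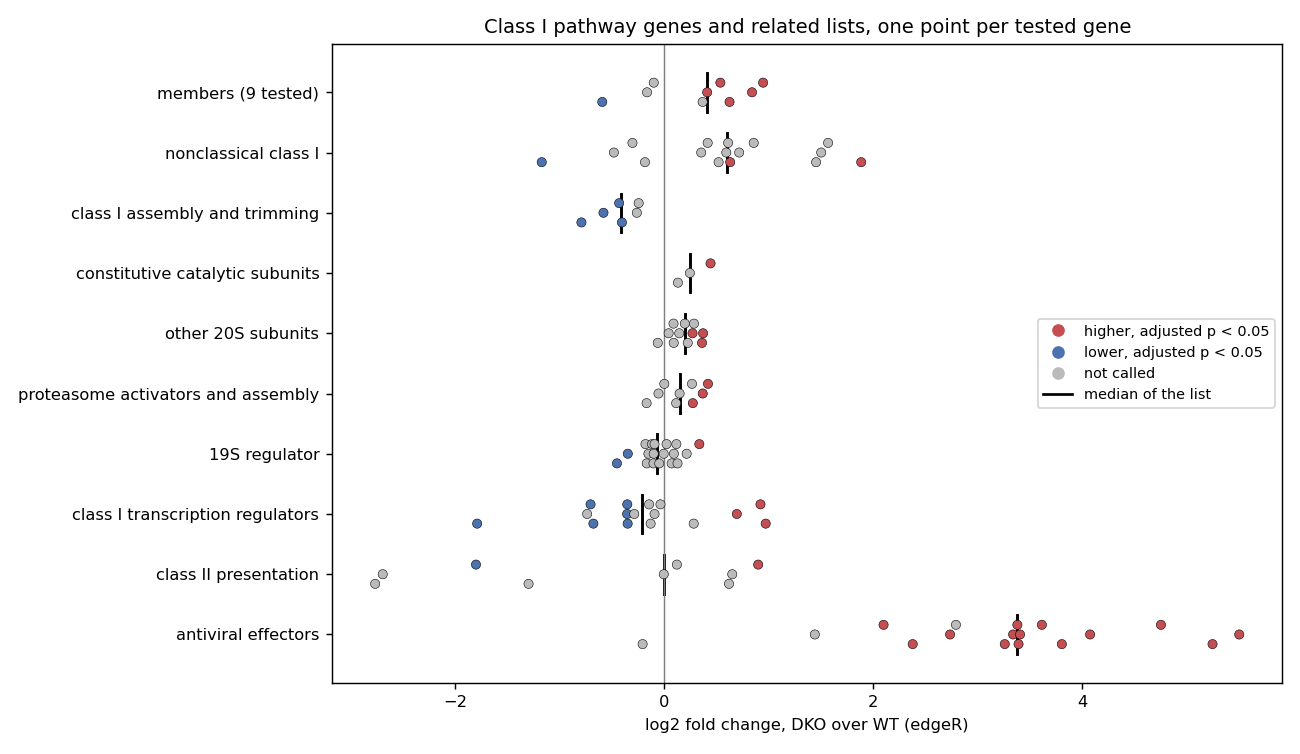
Log2 fold change of DKO over WT (horizontal axis, edgeR) for the 9 tested members and for the tested genes of 9 related lists, 1 point per gene, coloured where the adjusted p was under 0.05, with the median of each list as a black bar. Medians were 0.41 for the members, 0.60 for nonclassical class I genes, -0.42 for assembly and trimming and 3.38 for antiviral effectors. Ifi44, with no WT count, is left out.

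The ratio of each immunoproteasome subunit to the constitutive subunit it replaces does not depend on how libraries are scaled. Psmb8 stood at 13.0%, 13.9%, 11.4% and 14.5% of Psmb5 per kilobase in WT and at 7.67%, 10.8%, 9.03% and 11.98% in DKO. DKO 4 lay within the WT range and the others below it, and the geometric means were 13.2% and 9.73% (difference on the log2 scale -0.44, exact permutation p = 0.0571, adjusted over the 3 pairs p = 0.0857). Psmb9 stood at 2.36%, 2.88%, 2.37% and 3.63% of Psmb6 in WT and at 2.11%, 2.42%, 1.54% and 1.66% in DKO. DKO 2 overlapped with WT, and the geometric means were 2.77% and 1.90% (difference -0.54, exact permutation p = 0.0857, adjusted p = 0.0857). Psmb10 stood at 89.4%, 89.9%, 91.4% and 86.2% of Psmb7 in WT and at 106%, 112%, 116% and 98.4% in DKO. Every DKO library lay above every WT library (geometric means 89.2% and 108%, difference 0.27, exact permutation p = 0.0286, the smallest possible, adjusted p = 0.0857). None of the 3 differences passed after adjustment, and with 4 against 4 libraries 1 pair alone cannot pass, since the smallest p of 0.0286 becomes 0.0857 over 3 pairs. The adjusted p fell to 0.0429 without DKO 4 for Psmb8, without DKO 2 for Psmb9, and without either of these libraries for Psmb10. These omissions removed the only DKO library within the WT range for Psmb8 and for Psmb9. Separation and the smallest exact p of 0.0286 then followed in advance, so nothing is concluded from them. For Psmb10 the exact p was already the smallest possible, and its adjusted p fell because another pair reached that value too. The absolute percentages depend on the exon lengths used.

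**Figure D4:**
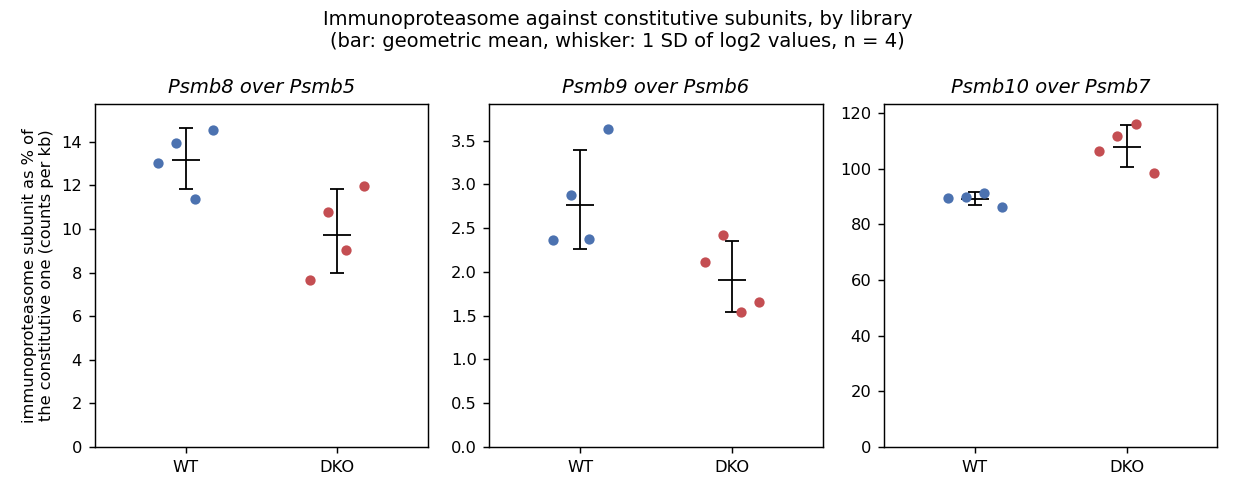
Level per kilobase of Psmb8, Psmb9 and Psmb10 as a percentage of Psmb5, Psmb6 and Psmb7 (vertical axes, each starting at 0) in each WT library (blue) and DKO library (red), with the geometric mean (bar) and 1 SD of the log2 values (whisker). The Psmb10 ratio was separated between the groups, at 86.2% to 91.4% in WT and 98.4% to 116% in DKO, and the other 2 ratios overlapped.

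The constitutive subunits and the rest of the 20S core showed small differences. Psmb6 was called higher (log2 fold change 0.44, SE 0.093, adjusted p = 0.0113 in edgeR), and Psmb5 (0.25, adjusted p = 0.0752) and Psmb7 (0.13, adjusted p = 0.354) were not called, with 2 of the 3 called without DKO 1. Of 11 other 20S subunits 3 were called higher, led by Psmb3 (0.37, adjusted p = 0.0364) and Psmb4 (0.36, adjusted p = 0.0252), with a list median of 0.20. That count ranged from 0 to 6 when 1 library was left out, with 0 in edgeR without WT 1, WT 2, WT 4, DKO 2 or DKO 3, 1 without WT 3 or DKO 4, and 6 without DKO 1, and DESeq2 called 3. Psme1 and Psme2, which encode the subunits of the interferon-inducible PA28 activator, were both called higher, with log2 fold changes of 0.28 (SE 0.071, adjusted p = 0.0241) and 0.42 (SE 0.071, adjusted p = 0.00531). Their libraries did not overlap, at 9127 to 9982 normalized counts in WT and 10786 to 12233 in DKO for Psme1, and at 9406 to 9786 and 11841 to 13878 for Psme2. With Psmg4, an assembly chaperone, 3 of the 9 genes for activators and assembly factors were called, a count of 1 without WT 1, WT 2, WT 4 or DKO 2. In the 19S regulator, which unfolds substrates, 1 of 18 genes was called higher (Psmd4, 0.34) and 2 lower (Psmd1, -0.45, and Psmd2, -0.35), with a median of -0.07. These calls made up 16.7% of the list, beside 21.6% of all tested genes in either direction. Leaving out 1 library moved these counts to between 0 and 2 upward and between 1 and 2 downward, with 0 upward in edgeR without WT 1, WT 2, WT 4 or DKO 4, 2 upward without DKO 1, and 1 downward without WT 1, WT 2, WT 4, DKO 1 or DKO 4.

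Of 6 genes for the chaperones and the peptidase that finish class I complexes in the endoplasmic reticulum, 4 were called lower. Beside this, 10.8% of all tested genes were called lower. The list median was -0.42, and Tapbpl (adjusted p = 0.302 in edgeR) and Uggt1 (0.145) were not called. Erap1, which trims peptides to their final length, fell by 0.79 on the log2 scale (SE 0.129, adjusted p = 0.00486 in edgeR), from 1475 to 1988 normalized counts in WT to between 870 and 1117 in DKO. Pdia3, the oxidoreductase of the peptide-loading complex, fell by 0.58 (SE 0.082, adjusted p = 0.00308), from 44052 to 53599 normalized counts in WT to between 31444 and 35388 in DKO. Neither gene had overlapping libraries. Calr and Canx, which encode lectin chaperones for many glycoproteins besides class I, fell by 0.40 and 0.43. The count of 4 became 2 without WT 1, WT 2, WT 4 or DKO 4, and 2 under upper-quartile scaling.

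Of the nonclassical class I genes, whose products mostly serve other functions than display to conventional T cells, 16 of 20 were tested. The list median was 0.60, beside 0.03 over all tested genes, and 12 of the 16 had a positive log2 fold change. Among them 2 were called higher and 1 lower. These calls made up 18.75% of the 16, beside 21.6% of all tested genes in either direction. H2-T23, which encodes Qa-1, was called higher, at 1014, 1129, 1063 and 1125 normalized counts in the WT libraries and at 2187, 1598, 1546 and 1386 in DKO (log2 fold change 0.63, SE 0.144, adjusted p = 0.0154 in edgeR). H2-Q4 was called higher at low counts, with 12.2 to 15.6 in WT and 23.2 to 70.01 in DKO (1.89, SE 0.485, adjusted p = 0.0239). H2-Q10, which encodes a secreted class I molecule made in liver, was called lower, at 5824, 5857, 6925 and 7531 in WT and 3077, 4607, 943 and 2997 in DKO (-1.17, SE 0.369, adjusted p = 0.0493). Its lowest library, DKO 3, was also the library with the lowest hepatoblast marker sum, a relation that was not tested. H2-Q10 lost its call without any 1 WT library or without DKO 4, and the count of 2 higher genes became 0 without WT 1, 1 without WT 2, WT 3 or WT 4, and 3 without DKO 1 or DKO 3. H2-Q10 was also not called with the replicate block, with library size alone or upper-quartile scaling, with no filter or at least 10 counts in every library, or among protein-coding genes alone. The count of higher genes was 0 in edgeR with the block, 4 under upper-quartile scaling or with at least 10 counts, and 5 in DESeq2. Class I genes resemble each other in sequence, and reads can be assigned to a wrong copy. When the counts of 17 heavy chain genes were summed into 1 feature, the log2 fold change was 0.53 (SE 0.075, adjusted p = 0.00314 in edgeR). This lay below the values of H2-K1 and H2-D1, which made up at least 57.8% of that sum in every library. The sum also held H2-Q10, which was called lower and had means of 6534 (WT) and 2906 (DKO). A sum without H2-Q10 was not fitted. The part of H2-Q10 and of misassigned reads in the lower value was not tested.

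Among the 16 factors known to act on class I promoters, 3 were called higher and 6 lower, beside 10.7% and 10.8% of all tested genes. In 8 of the 16 every DKO library lay below every WT library, beside 14.6% of all tested genes. In 3 every DKO library lay above, beside 13.5%. Irf9, the DNA-binding subunit of the complex that type I interferon activates, was measured at 1462, 919, 939 and 1102 normalized counts in WT and at 2461, 1873, 2106 and 2233 in DKO (log2 fold change 0.97, SE 0.161, adjusted p = 0.0052 in edgeR). Every DKO library lay above every WT library. Irf1, a factor that interferon gamma induces and that binds class I promoters, did not pass the test, at 1034 ± 107 in WT and 621 ± 216 in DKO (-0.73, adjusted p = 0.0546 in edgeR). Its libraries did not overlap, at 874 to 1100 in WT and 383 to 828 in DKO. Irf8, a factor of myeloid cells, was called lower (-1.79, SE 0.465, adjusted p = 0.0251), from 2913 to 3653 in WT to between 225 and 1583 in DKO. Macrophage markers, of which 2 of 9 tested were called lower, summed to 5361 to 7512 normalized counts in WT and 1038 to 2932 in DKO, carried by Lyz2 and Csf1r, with Timd4 at 0 in all libraries but WT 4. Neutrophil markers, of which 3 of 7 tested were called lower, summed to 101240 to 132230 in WT and 5282 to 44621 in DKO. Mpo carried that sum, with means of 108150 in WT and 22998 in DKO. Of the 7, 5 had a negative log2 fold change, and S100a8 and S100a9, both at low counts, had positive ones that were not called. S100a8, S100a9 and Ltf had WT means of only 40.06, 13.03 and 31.54, so the sum follows Mpo and not the whole list. Among 6 dendritic markers, Siglech and Cd209a were called lower, with WT means of 26.76 and 32.8 and no counts in DKO. Xcr1 was called higher (log2 fold change 2.40), and the other 3 were not called. Beside these counts, 10.8% of all tested genes were called lower. The part of macrophages, dendritic cells, early progenitors and cells expressing Mpo in the Irf8 result was not tested. The sort used antibodies to CD11b and Ly6G/Ly6C, among others, to remove lineage-positive cells. Rfxap of the RFX complex was called higher (0.70, adjusted p = 0.0379), while Rfx5 and Rfxank were not called, and Nfya and Nfyc of NF-Y were called lower (-0.70 and -0.35). The counts were 1 to 3 higher and 2 to 6 lower when 1 library was left out, with 1 higher without WT 2, WT 3, WT 4 or DKO 3, and 2 lower without WT 1 or WT 2, 3 without WT 4 and 4 without WT 3.

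The class II genes, which present peptides taken up from outside the cell, were mostly low. Of the 10 listed, 9 were tested, H2-Ab1 was called higher (log2 fold change 0.90, SE 0.279, adjusted p = 0.0464 in edgeR) and H2-DMa lower (-1.80, SE 0.449, adjusted p = 0.0215), and the list median was -0.00. These calls made up 22.2% of the 9, beside 21.6% of all tested genes in either direction. Neither H2-Ab1 nor H2-DMa was called without WT 1, WT 2 or WT 4. H2-Ab1 was also not called without any 1 of DKO 2, DKO 3 and DKO 4. Without DKO 1 or DKO 2 the count of lower genes was 2. Ciita, the class II counterpart of Nlrc5, was measured at 13.4 ± 6.39 normalized counts in WT and 21.1 ± 11.3 in DKO (0.65, adjusted p = 0.487).

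The interferon-induced antiviral genes changed far more than the class I genes in the same libraries. Of 18 such effectors 15 were called higher, beside 10.7% of all tested genes, and between 14 and 15 when 1 library was left out. Ifit2 (log2 fold change -0.20, adjusted p = 0.553 in edgeR), Ifit3 (2.79, 0.0811) and Mx1 (1.44, 0.0934) were not called. The median log2 fold change was 3.38, the same with Ifi44 set to the bound that 3 counts per WT library allow. Ifit1, whose product binds viral RNA, rose from 70.2, 19.8, 23.5 and 28.8 normalized counts in WT to 2010, 1618, 1927 and 815 in DKO (log2 fold change 5.50, SE 0.473, adjusted p = 0.000343 in edgeR). Ifi44 had no WT count and 399, 63.9, 28.1 and 14.6 in DKO. The summed antiviral genes stood at 63159 in DKO 1, 34802 in DKO 2, 41625 in DKO 3 and 34152 in DKO 4. The members summed to 66336, 72560, 70541 and 73398 in the same libraries, a sum carried by B2m, H2-D1 and H2-K1. DKO 1 was thus highest in the antiviral sum and lowest in the member sum, but by single members it was lowest for H2-D1, Tap2, Psmb8 and Psmb10, highest for Tapbp and Nlrc5, and between the others for H2-K1, B2m, Tap1 and Psmb9. Mesenchymal markers were also highest in DKO 1, and their part in these levels was not tested.

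The genes most like the members over the 8 libraries were Surf1, Zfp511, Glipr2, BC049715 and Sarnp. The measure was Pearson's correlation of log2 CPM with the mean of the standardized values of the 9 tested members, and it was 0.965, 0.950, 0.944, 0.944 and 0.942 among 12330 genes with a mean of at least 100 normalized counts. It is a description only, since the libraries fall into 2 groups that differ in most members. Of these 5 genes, Glipr2 (log2 fold change 0.77, adjusted p = 0.0021 in edgeR), BC049715 (0.91, adjusted p = 0.0422) and Sarnp (0.35, adjusted p = 0.0153) were called higher, and Surf1 (0.21) and Zfp511 (0.29) were not called.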

How the data were processed

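Counts per gene were analysed for 4 WT and 4 DKO libraries, grouped by the sample labels. Libraries had been made from low-input RNA by template switching and sequenced as read pairs. The authors trimmed reads with fastp 0.21.0, mapped them to mm10 with HISAT2 2.2.1, dropped alignments of low quality and deposited unnormalized, unpooled counts made with StringTie 1.3.3b and prepDE. Because prepDE works back from coverage with a set read length, the counts also were refitted after division by 2. The strand setting is not given in the sources used here.

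Of 52636 identifiers, 52489 matched GENCODE M21 (GRCm38) without version and 49121 with it. In R 4.3.3, edgeR 4.0.16 was used with filterByExpr, TMM scaling and the robust quasi-likelihood test, adjusted by Benjamini-Hochberg over all 17378 genes. The scripts were tested on simulated data. Single members and subunit ratios were also compared by an exact permutation test over 70 arrangements of libraries. DESeq2 1.42.0, other scalings, filters and gene sets, a replicate block and the omission of each library were the alternatives. Promoters were RefSeq's, GRCm38.p6, with an entry for 8 of 10 members.

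Members and lists were chosen with earlier results of these data known. Values are named for the members, the constitutive catalytic subunits, Psme1, Psme2, Erap1, Irf1, Ciita, nonclassical class I genes past the threshold, the 2 genes of other lists with the largest called log2 fold change and the 5 most alike genes. Psmg4, Psmd4, Calr, Canx, Rfxap, Nfya, Nfyc, H2-M3, Glyr1, Hnrnpf, Calu, Ifit2, Ifit3 and Mx1 were added after their values were seen. 1 gene of that rule is not reported here.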

Additional observations from a re-analysis of the deposited data

Results flagged for a closer look

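In each of 2 members, 1 DKO library lay apart from the other 3. Tap1 was highest in DKO 4, with 1436 normalized counts against 968 to 1039 in the other DKO libraries, and the gap to the nearest library was 0.849 of the group's range. Tap2 was highest in DKO 3, with 1918 against 1486 to 1548, and the gap was 0.855 of the range. Both exceed the critical value of Dixon's test for 4 values, which chance alone passes in about 1 of 20 groups, and 25 groups of libraries (19 of members and 6 of subunit ratios) were screened. Without DKO 4 the log2 fold change of Tap1 was 0.48 with an adjusted p of 0.0525 in edgeR, and without DKO 3 that of Tap2 was -0.68 with an adjusted p of 0.00319.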

How the results depend on the processing

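H2-K1, H2-D1 and B2m kept their direction and an adjusted p under 0.05 in each of the 17 refits, with log2 fold changes of 0.63 to 0.95, 0.91 to 1.06 and 0.41 to 0.65, and Tap2 did so except with DKO 3 as the only DKO library. Requiring a log2 fold change beyond 1 as well ended all member calls. The number of members called higher, 5, was 3 with the replicate block, 3 to 5 when 1 library was left out (3 without any 1 WT library) and 0 with a log2 fold change beyond 1 as well. The number called lower, 1, was 0 with that limit and 0 with DKO 3 as the only DKO library, an alternative chosen after seeing the data, and 1 whichever library was left out. Under the block Tap1 and Psmb10 lost their calls, and Psmb10 also did with no low-count filter. Psmb9 turned from -0.10 to 0.012 under upper-quartile scaling, where Tapbp was called (adjusted p = 0.0456 in edgeR). That scaling moved the median log2 fold change of all genes from 0.03 to 0.14, and calls over all genes from 1867 higher and 1878 lower to 2492 and 1242. The block gave 1026 and 1083, omission of WT 1, WT 2 or WT 4 gave 858 and 898, 1011 and 1050, or 948 and 957, and DESeq2 gave 2777 and 2658. Of the genes on the 9 related lists, 43 were called, and 23 to 48 when 1 library was left out (24 without WT 1, 23 without WT 2, 24 without WT 4). Over these omissions the log2 differences of the subunit ratios ranged from -0.54 to -0.32 (Psmb8), -0.66 to -0.41 (Psmb9; -0.655 without DKO 2) and 0.24 to 0.32 (Psmb10; 0.26 without DKO 2, 0.32 without DKO 4). Paired by number, their sign-flip permutation test cannot go below p = 0.125. Replicate numbers paired nothing, since deviations of same-numbered libraries correlated at -0.102, 0.053, -0.028 and -0.007, and the samples share only a number. The cause of these changes was not tested. Nlrc5 was tested in 8 of the alternatives, with adjusted p between 0.195 and 0.828.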
